A study of Caenorhabditis elegans with 2 samples.

Results

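The 7 genes described here encode the Smad proteins SMA-2, SMA-3, SMA-4, DAF-3, DAF-8 and DAF-14 and the Sno/Ski protein DAF-5 of Caenorhabditis elegans. They were chosen by name from the 19973 protein-coding genes of the 6 nuclear chromosomes, and the rule for choosing them uses no measured value, although earlier results of these data were known when they were chosen. At these genes, or within 3000 bp of them, lay 24 of the 7065 SMA-9 ChIP-seq summits on the authors' IDR list. That list was thresholded by irreproducible discovery rate (IDR), which asks whether peaks keep their rank between replicates. A place on it does not show this for each peak. The 24 summits were shared very unequally: daf-5 had 11, daf-14 had 5, daf-3 had 3, sma-2 and sma-4 had 2 each, sma-3 had 1 and daf-8 had 0. The strongest lay in the long first intron of daf-5 and in the first intron of daf-14.

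SMA-9 is a zinc-finger protein of the Schnurri family and a nuclear cofactor of the DBL-1 pathway. Per the labels, the worms were hermaphrodite L2 larvae of strain LW1254, taken whole at 22 hours after synchronization, which was by bleaching and starvation at L1. The strain carries the integrated transgene jjIs1254, which holds sma-9C2::gfp and the rescue marker unc-119(+), in an unc-119(ed4) background, and the labels describe the tag as GFP-FLAG at the C-terminus of SMA-9. Chromatin was sonicated and precipitated with an antibody against GFP, in 1 group of 2 biological replicates with no treatment and no second genotype or stage, which leaves no pair of conditions to compare. The labels do not name the promoter that drives the transgene. A peak in whole larvae does not say in which cells the protein was bound. A control experiment is referred to in the labels and was not analysed here.

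Signalling by TGF-β-type ligands runs in this worm through a pair of partly separate pathways. In the first, the BMP-like ligand DBL-1 activates the receptor-regulated Smads SMA-2 and SMA-3, which act with the co-Smad SMA-4 and set body size, male tail form and mesodermal fate. In the other, that of the ligand DAF-7, the receptor-regulated Smads DAF-8 and DAF-14 counteract the co-Smad DAF-3 and its partner DAF-5, a Sno/Ski protein, and this switch decides between reproductive growth and the dauer larva, a resting stage that resists starvation. Sno and Ski proteins bind Smads and are known in mammals as repressors of Smad targets. Vertebrate Smads bind the short sequence GTCT and its palindrome GTCTAGAC, and some bind the GC-rich element GGCGCC.

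Each call in the deposited lists comes with the authors' peak signal, a value set by their peak caller that has no fixed unit. It ranks peaks within 1 list, and signals from the pooled list and the replicate lists are not on the same scale. The pooled list held 30000 calls, and the 7065 IDR peaks were those of highest pooled signal, from 2844 down to 61.96, with a median of 109.1. Calls said here not to pass IDR are pooled calls below that limit, whatever their replicate ranks. The replicate 1 list held 30000 nuclear calls and that of replicate 2 held 29983, beside 17 mitochondrial calls. Ranks below count nuclear calls from 1, the strongest. The lists hold no read counts, so the depth of each library is unknown and no interval or floor could be given.

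IDR summits were present in or near 6 of the 7 genes, all but daf-8. Of all 19973 protein-coding genes, 39.8% had an IDR summit by the same rule. Within 1000 bp of an annotated 5' end of their own, 5 of the 7 genes had an IDR summit, and sma-4 and daf-8 did not. That promoter-centred rule called 20.2% of all protein-coding genes. In the longer pooled list, which includes calls that did not pass IDR, all 7 genes had a call within 3000 bp, against 69.2% of all genes. All 7 genes are longer than the median protein-coding gene of 2027 bp, from 2995 bp for sma-3 to 19089 bp for daf-5. The shares of all genes were not matched for length or for number of 5' ends. With 7 genes, each gene moves these shares by a large step, and they are given as descriptions.

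The order of the genes by strongest pooled signal was daf-5 (725), daf-14 (525), sma-2 (311), daf-3 (175), sma-4 (138) and sma-3 (69.2), with daf-8 without an IDR peak. This order depends on the window of 3000 bp: within 2000 bp daf-3 had 130.6 and stood below sma-4, and within 5000 bp sma-3 had 194 and stood above both. Among the replicate 1 calls that hold an IDR summit, the best rank of each gene gave the same order as the pooled signal, from 122 for daf-5 over 179, 799, 1867 and 4398 to 7185 for sma-3. Among such calls of replicate 2 the best ranks were 81 for daf-5, 255 for daf-14 and 500 for sma-2. Below these, sma-4 at rank 1824 stood ahead of daf-3 at 1949, and sma-3 was last at 6581. For calls at IDR summits within 3000 bp, daf-5, daf-14 and sma-2 were thus at the top and sma-3 at the bottom in both libraries, and the neighbours daf-3 and sma-4 changed places.

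**Figure D1:**
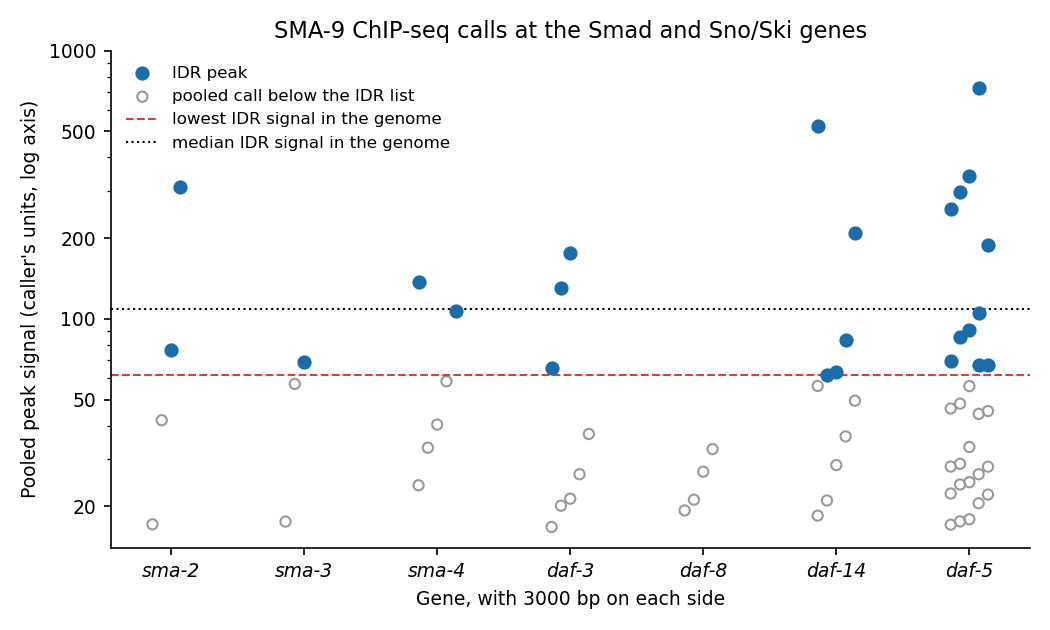
Pooled peak signal (caller's units, log axis) of every call in or within 3000 bp of each gene; filled points are IDR peaks, open points are pooled calls below the IDR list, and the lines mark the lowest and the median IDR signal of the genome. Of the 24 IDR peaks, 11 lie above the median line, and daf-8 has open points only.

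The signals of the 24 peaks were not high as a group. Their median was 105.9, beside 109.1 for all IDR peaks, and 11 of the 24 stood at or above the genome's median. The upper end held 6 peaks among the first 1000 of the list, of which 4 belonged to daf-5, 1 to daf-14 and 1 to sma-2.

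SMA-2 is a receptor-regulated Smad of the DBL-1 pathway. The gene (WBGene00004856) lies on the plus strand of chromosome III at 8749680-8757089 of WBcel235, the assembly also called ce11, with 3 annotated 5' ends. Its stronger summit, at 8749620, lay 60 bp upstream of the first 5' end and had a pooled signal of 311, rank 627. That peak had a signal of 159 in replicate 1, rank 799, and of 158 in replicate 2, rank 500, so both libraries placed it high. The weaker summit, at 8748840 and 840 bp upstream, had a pooled signal of 76.6, and its rank differed between the libraries, with 10503 in replicate 1 and 3885 in replicate 2. Both summits also lay inside ugtp-1, a neighbouring gene on the opposite strand, and the weaker lay 139 bp upstream of a ugtp-1 5' end, so they cannot be assigned to sma-2 from position. The stronger summit is shown with 50 bases on each side, the window used for all summits below, on the plus strand because they hold 5 copies of the short Smad element, all in the same orientation; capitals mark GTCT.
sma-2 chrIII:8749570-8749670 (+): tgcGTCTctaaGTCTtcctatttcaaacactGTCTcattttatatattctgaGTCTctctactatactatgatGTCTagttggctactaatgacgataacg

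Windows with 5 or more copies of GTCT or its reverse complement AGAC were rare, with 43 of 7065 IDR windows (0.609%). Among the 24 windows at the Smad and Sno/Ski genes there were 2, the one at sma-2 and the daf-5 window around 14050638. The limit of 5 was not planned and equals the highest count among the 24, while the highest over all IDR windows was 7. The rarity of these windows thus follows in part from the limit and is given as a description only. A further pair of pooled calls in the body of sma-2 had signals of 41.9 and 17.1 and did not pass IDR.

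SMA-3, the other receptor-regulated Smad of the pathway, acts together with SMA-2. The gene (WBGene00004857) lies on the minus strand of chromosome III at 6860974-6863968 and has 1 annotated 5' end. It had 1 IDR summit, at 6864117, which lay 149 bp upstream of that end. The pooled signal was 69.2, rank 6239 of 7065, near the lower end of the list, and the ranks were 7185 in replicate 1 and 6581 in replicate 2. This was the only one of the 6 genes whose strongest peak fell outside the strongest 7065 calls of a replicate. The sequence around the summit, on the plus strand, holds no GTCT on either strand and is shown for contrast with the sma-2 window.
sma-3 chrIII:6864067-6864167 (+): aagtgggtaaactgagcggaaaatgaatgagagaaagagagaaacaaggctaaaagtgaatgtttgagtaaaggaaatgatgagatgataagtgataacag

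Just below the IDR list stood a pooled call in an intron of sma-3, with a signal of 57.2 and rank 7686. It ranked 4381 in replicate 2 and 17743 in replicate 1. The next IDR summit, at 6857723, lay 3251 bp downstream of the gene, outside the window, and 914 bp upstream of zak-1, with a signal of 194.

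SMA-4 is the co-Smad that joins SMA-2 and SMA-3. The gene (WBGene00004858) lies on the plus strand of chromosome III at 5816232-5820204, with 3 annotated 5' ends. It had 2 IDR summits, both upstream. The farther one, at 5814282 and 1950 bp from the nearest sma-4 5' end, had a pooled signal of 138, and its rank was 4604 in replicate 1 and 1824 in replicate 2. The nearer, at 5814961 and 1271 bp away, had a pooled signal of 107, with ranks of 4398 and 3276. Both stood closer to the gene R12B2.7, at 763 and 84 bp upstream of its 5' end, and R12B2.7 was the nearest gene of both. A call at sma-4 thus rests on the distance allowed. The stronger window opens with a pair of GTCT copies, in capitals.
sma-4 chrIII:5814232-5814332 (+): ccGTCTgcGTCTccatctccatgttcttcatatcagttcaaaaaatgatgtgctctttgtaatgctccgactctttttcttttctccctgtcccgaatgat

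DAF-14 is a receptor-regulated Smad of the DAF-7 pathway, which relieves the repression of genes for reproductive growth. The gene (WBGene00000910) lies on the plus strand of chromosome IV at 10250627-10255852, with 2 annotated 5' ends, 3039 bp apart. Its 5 IDR summits all lay inside the gene, 4 of them in the first intron of the longer transcript, F01G10.8b.1, which spans 10250729-10253616 (2888 bp), and 1 in a coding exon. Of all protein-coding genes, 198, daf-14 included, had 5 or more IDR summits within 3000 bp. The window of 11.2 kb held 0.445 IDR summits per kb, against 0.0705 per kb over the 6 chromosomes. That average is not a like background, since the sma-3 window with its 1 summit held 0.111 per kb. Apart from daf-5, with 0.438, the highest of the other named genes was 0.221 at daf-3.

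The inner 5' end of daf-14 is that of F01G10.8a.1, which is annotated without a 5' UTR and begins with coding sequence. The strongest summit of daf-14, at 10252491, lay 1175 bp upstream of this end. It had a pooled signal of 525 (rank 205), a replicate 1 signal of 318 (rank 179) and a replicate 2 signal of 211 (rank 255), high in both libraries. The second strongest, at 10250851, lay 224 bp downstream of the outer 5' end, with a pooled signal of 210; its rank was 1633 in replicate 1 and 1303 in replicate 2. The 3 others had pooled signals of 83.2 at 10251504, 63.6 at 10253434 and 62.0 at 10254114, and the last, at rank 7057, was near the end of the IDR list of 7065. These 3 also had unequal or low replicate ranks: 6754 and 3284, 6338 and 12362, and 8231 and 7681 in replicates 1 and 2. The windows of both strong summits hold CACGTG, a palindromic E-box core that some basic helix-loop-helix proteins bind, which 7.36% of all IDR windows and 1.67% of genome tiles of the same length hold. Both are shown on the plus strand, with CACGTG and GTCT in capitals.
daf-14 chrIV:10252441-10252541 (+): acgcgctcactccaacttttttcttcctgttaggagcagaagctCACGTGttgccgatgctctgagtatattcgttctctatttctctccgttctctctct
daf-14 chrIV:10250801-10250901 (+): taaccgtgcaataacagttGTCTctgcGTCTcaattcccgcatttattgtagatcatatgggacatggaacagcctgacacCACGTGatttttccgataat

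DAF-3 is the co-Smad of the DAF-7 pathway and acts when the pathway is silent. The gene (WBGene00000899) lies on the minus strand of chromosome X at 817922-825475 and has 9 annotated transcripts with 7 distinct 5' ends. Of its 3 IDR summits, 2 lay upstream of the gene. The farther, at 827716, lay 2241 bp upstream of the nearest daf-3 5' end and had a pooled signal of 175. It ranked 1867 in replicate 1 and 1949 in replicate 2. It was closer to wdr-54, which starts 1187 bp away, so this strongest signal of daf-3 is shared by position. The nearer, at 826136 and 661 bp upstream, had a pooled signal of 131 and ranks of 2636 and 3328. The last, at 823889, lay in introns of several transcripts and 43 bp upstream of an inner 5' end. Its pooled signal was 65.7 and its ranks were 9282 and 4410, and the replicate 1 summit was offset by 117 bp. All 5 other pooled calls of daf-3 lay in the body or downstream, with signals of 37.2 or lower. The strongest window, on the plus strand, holds 1 GTCT, which is part of GTCTG.
daf-3 chrX:827666-827766 (+): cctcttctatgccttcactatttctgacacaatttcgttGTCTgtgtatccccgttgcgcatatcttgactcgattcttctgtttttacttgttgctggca

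**Figure D2:**
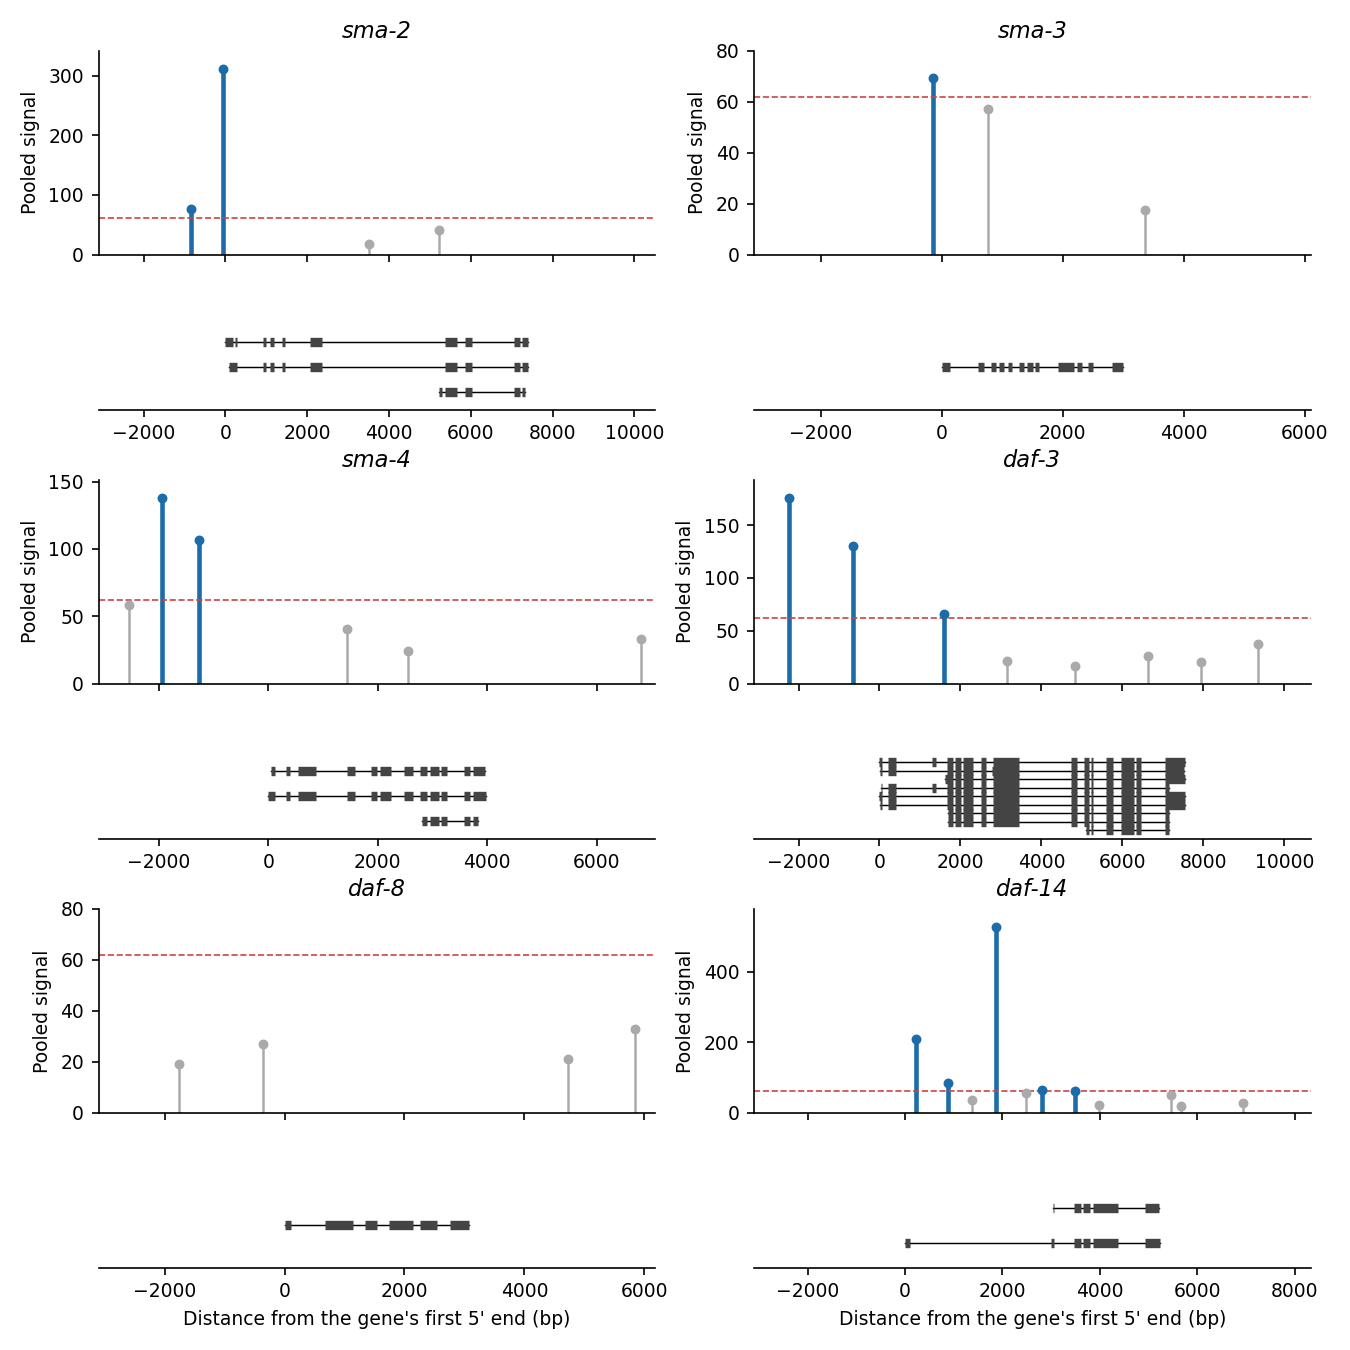
Pooled signal (caller's units) of calls at the 6 genes other than daf-5, by distance in bp from each gene's first 5' end in the direction of transcription; blue stems are IDR summits, grey stems pooled calls that did not pass IDR, the dashed line is the lowest IDR signal (61.96), and the models below show exons as boxes. IDR summits lie upstream at sma-2, sma-3 and sma-4, mostly upstream at daf-3, inside the gene at daf-14, and nowhere at daf-8.

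DAF-5 is the Sno/Ski protein that acts with DAF-3. The gene (WBGene00000901) lies on the minus strand of chromosome II at 14033216-14052304. It spans 19089 bp, against a median of 2027 bp over all protein-coding genes, and has 2 annotated transcripts, a long one, W01G7.1.2, and a short one, W01G7.1.1, whose 5' ends are 14583 bp apart. Its 11 IDR summits were exceeded by 9 of all protein-coding genes and equalled by 2. Of the 11, 9 lay in the first intron of the long transcript, at 14037722-14052167 (14446 bp), 1 in an intron that both transcripts share, and 1 was 1349 bp upstream of the long transcript. No other protein-coding gene lay within 3000 bp of any of them. The pooled list added 18 calls that did not pass IDR, the strongest of them at 56.1.

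Long genes offer more room for peaks. Of the 220 protein-coding genes with a span of at least that of daf-5, 137 had an IDR summit within 3000 bp, with a median of 1 over all 220. The count reached 11 or more in 6 of the 220, daf-5 included, and the highest was 18. Per kb of window, daf-5 held 0.438 IDR summits, close to the 0.445 of daf-14.

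The strongest peak of daf-5, with its summit at 14040434, lay 2713 bp upstream of the short transcript's 5' end. It had a pooled signal of 725, with 100 stronger calls in the pooled list, a replicate 1 signal of 375 (rank 122) and a replicate 2 signal of 345 (rank 81), so it was the strongest of the 24 in every list. A weaker IDR peak, with its summit at 14040635 and a pooled signal of 69.8, overlapped it. Both fell in the same call in each replicate, and counted once they leave 23 distinct peaks.

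The next 3 by signal were spread over the long transcript's first intron. The summit at 14049294, 3010 bp downstream of the long transcript's 5' end, had a pooled signal of 341, and ranked 477 in replicate 1 and 695 in replicate 2. At 14050638, 1666 bp downstream of the same end, the pooled signal was 299 and the ranks 544 and 1167. At 14044382, deep in the intron, the pooled signal was 257 and the ranks 800 and 1418. All 3 stood higher in replicate 1 than in replicate 2. The summits at 14043429 and 14036942 followed with pooled signals of 189 and 105, and those at 14038511, 14042979 and 14045378 with 91.1, 85.6 and 67.6.

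The upstream peak at 14053653 had the highest ratio of replicate 1 to replicate 2 signal of the 24, a log2 ratio of 1.41. Its pooled signal was 67.2, with a signal of 34.2 in replicate 1 (rank 7480) and 12.9 in replicate 2 (rank 18467). It lay outside the strongest 7065 calls of both replicates.

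**Figure D3:**
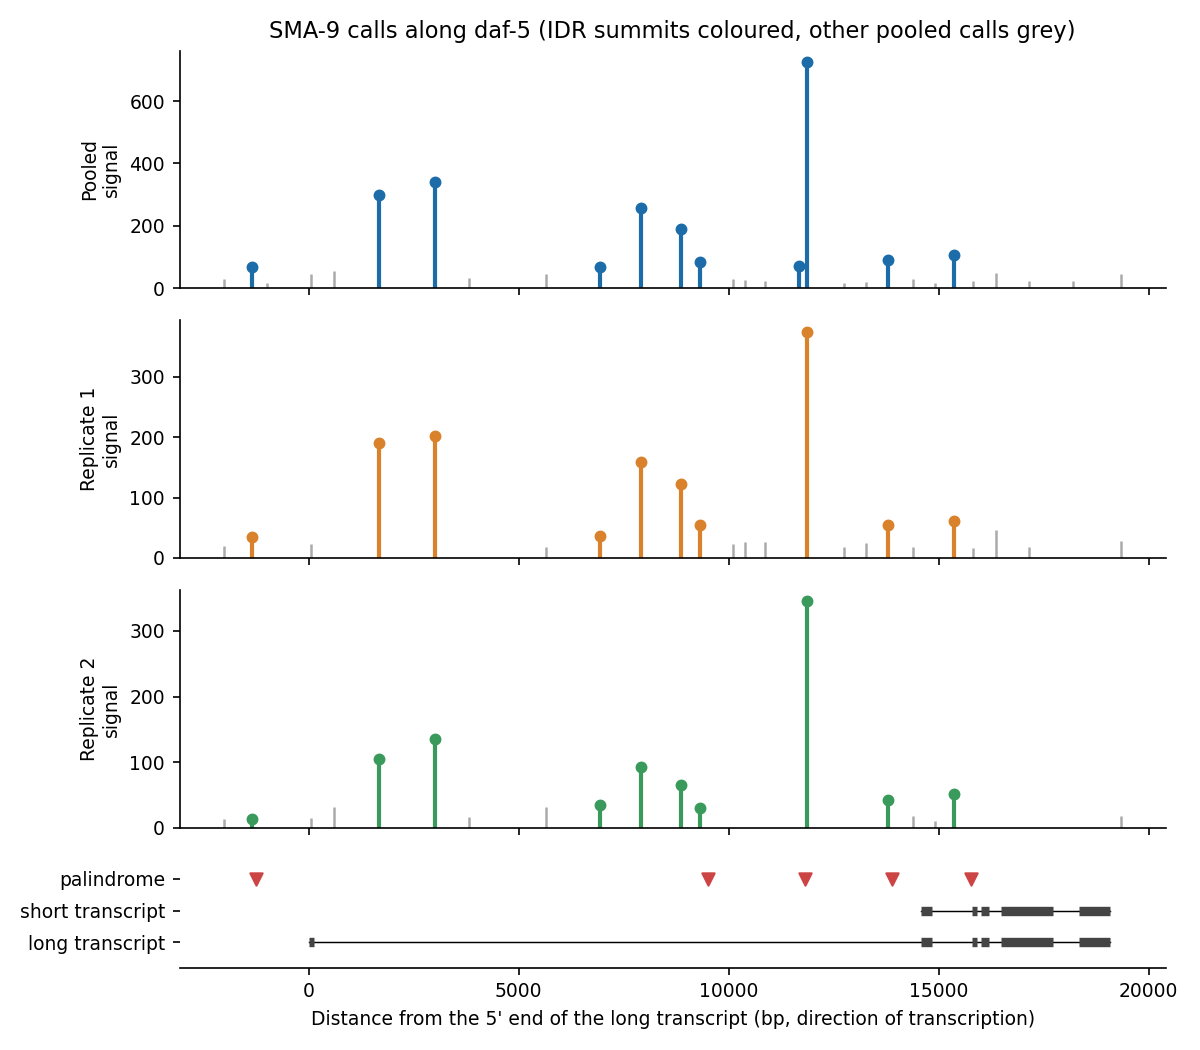
Calls along daf-5 by distance in bp from the 5' end of the long transcript, in the direction of transcription; coloured stems are IDR summits with their signal (caller's units) in the pooled list, replicate 1 and replicate 2, grey stems are pooled calls that did not pass IDR with their signal in each list, triangles are copies of GTCTAGAC, and a replicate call shared by overlapping IDR peaks is drawn once. The highest stem in all 3 panels is the summit at pooled signal 725, inside the long first intron.

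The windows around the strongest daf-5 summit and around the summit at 14049294 are shown on the plus strand, with GTCT, AGAC and GGCGCC in capitals. The former carries GGCGCC in a pair of copies with 1 base between them, 17 and 24 bp from the summit. GGCGCC was present in 2.42% of all IDR windows and 0.662% of genome tiles, and in none of the other 23 windows at these genes. The latter carries an AGAC 9 bp from its summit and a GTCT 30 bp from it, both within the longer form GTCTG or its reverse complement.
daf-5 chrII:14040384-14040484 (+): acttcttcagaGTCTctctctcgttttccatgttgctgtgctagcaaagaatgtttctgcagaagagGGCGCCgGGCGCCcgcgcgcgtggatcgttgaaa
daf-5 chrII:14049244-14049344 (+): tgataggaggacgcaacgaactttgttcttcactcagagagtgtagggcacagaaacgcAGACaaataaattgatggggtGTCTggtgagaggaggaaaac

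The palindrome GTCTAGAC stood in 0 of the 24 windows and in 0.113% of all IDR windows. With 100 bases on each side of the summit it stood in 2 of 24, both at daf-5, and in 0.297% of all. A search of the whole loci, made after these values were seen, found 5 copies in the daf-5 window of 25.1 kb, which is 19.9 per 100 kb, against 669 copies or 0.667 per 100 kb over the 6 chromosomes. Of all protein-coding genes, 5.05% had 1 or more copies in the gene or within 3000 bp, 2 genes had 5 or more, and the highest number was 6. The 220 long genes had a median of 0. Of the 5 copies at daf-5, 3 touched an IDR peak and 4 lay within 200 bp of an IDR summit, at 67, 81, 102 and 182 bp. The remaining copy was 402 bp from the nearest. Over the genome, 29 of the 669 copies (4.33%) touched an IDR peak, while IDR peaks covered 1.65% of the sequence. The daf-5 window held 0.438 IDR summits per kb, against 0.0705 over the 6 chromosomes. Genome-wide shares are therefore not a like background for the copies at daf-5. No share is given for the limit of 200 bp, and the closeness of copies to peaks was not tested. The 5 copies are shown with 20 bases on each side, plus strand, palindrome in capitals; they stand in the order of the chromosome, and the flanks differ from copy to copy.
chrII:14036517-14036564 (+): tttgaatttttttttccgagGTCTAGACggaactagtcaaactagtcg
chrII:14038386-14038433 (+): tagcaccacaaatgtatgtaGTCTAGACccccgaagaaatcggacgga
chrII:14040478-14040525 (+): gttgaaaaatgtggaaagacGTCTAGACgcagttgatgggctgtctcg
chrII:14042774-14042821 (+): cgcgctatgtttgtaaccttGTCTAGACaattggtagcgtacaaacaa
chrII:14053549-14053596 (+): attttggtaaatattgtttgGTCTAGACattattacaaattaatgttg

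Among the other 6 genes, daf-14 had 1 copy, downstream and 3517 bp from the nearest IDR summit, and 5 had 0. A match of letters describes the sequence and does not show a site that is used.

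Across the 24 windows, GTCT or AGAC was present in 17 (70.8%), against 59.4% of all IDR windows and 37.3% of genome tiles. The longer form GTCTG or CAGAC, which contains it, was in 9 (37.5%), against 18.6% of IDR windows and 9.74% of tiles. With 25 bases on each side the count for GTCTG was 4 of 24 and with 100 bases 14 of 24, beside 10.2% and 29.3% of all IDR windows. Other short elements gave 9 of 24 for GATAA (33.0% of all IDR windows), 8 for GAGAGA (25.6%), 3 for CACGTG, 1 for GGGCGG (4.52%) and 0 for TGACTCA (1.30%). All were searched on both strands. The windows had a median GC content of 46.0%, from 28.7% to 55.4%, beside 43.6% for all IDR windows and 34.7% for tiles, and base composition bears on how often each element occurs. The 24 windows come from 6 loci, and some lie in the same intron, so they are not independent of each other.

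The place of the summits was set beside that of all IDR summits. An intron of a protein-coding gene held 17 of the 24 (70.8%), against 27.9% of all IDR summits; in the 7 genes' own introns there were 15, of which daf-5 and daf-14 supplied 14. Coding exons held 1 of 24, against 2.97% of all. Within 1000 bp of any protein-coding 5' end lay 13 of 24 (54.2%), close to the 55.1% of all IDR summits, and over 2000 bp from any lay 7 of 24 (29.2%, against 25.4%). No summit lay downstream of its gene, 8 lay upstream, and 14 lay between annotated 5' ends of the same gene. Of these 14, daf-5 had 9, daf-14 had 4 and daf-3 had 1. The 5' ends of daf-5 and daf-14 stand 14583 and 3039 bp apart, and no share of all IDR summits is given for these counts. The difference in the intron share was not tested, and 2 genes, daf-5 and daf-14, carry 16 of the 24 summits.

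All 24 summits fell inside a call of both replicates, as did 95.2% of all IDR summits, and 17 of the 24 did so among the strongest 7065 calls of both, as did 71.8% of all. Since the IDR list is itself made from the replicates, these counts describe the evenness of the peaks and are no independent check. In 22 of the 24, the replicates' own summits lay within 100 bp of the IDR summit. No share of all IDR summits is given for this count, so it is not known whether it is usual. The log2 ratio of replicate 1 to replicate 2 signal had a median of 0.22 over the 24 summits, from -0.93 to 1.41, and of 0.31 over the 6727 IDR summits called in both. For the 11 daf-5 summits the median was 0.58 and the lowest 0.12. Signals of the replicate lists have no fixed unit and depth is unknown, so a ratio of 0 does not mark equal binding. Over all IDR summits called in both, the lower and upper quartiles were -0.07 and 0.68. The daf-5 summits at 14040434 and 14040635 fell in the same call in each replicate, so the lowest ratio counts for both. The rank was better in replicate 1 for 7 of 11 at daf-5, 2 of 5 at daf-14, 11 of all 24 and 51.2% of all IDR summits.

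**Figure D4:**
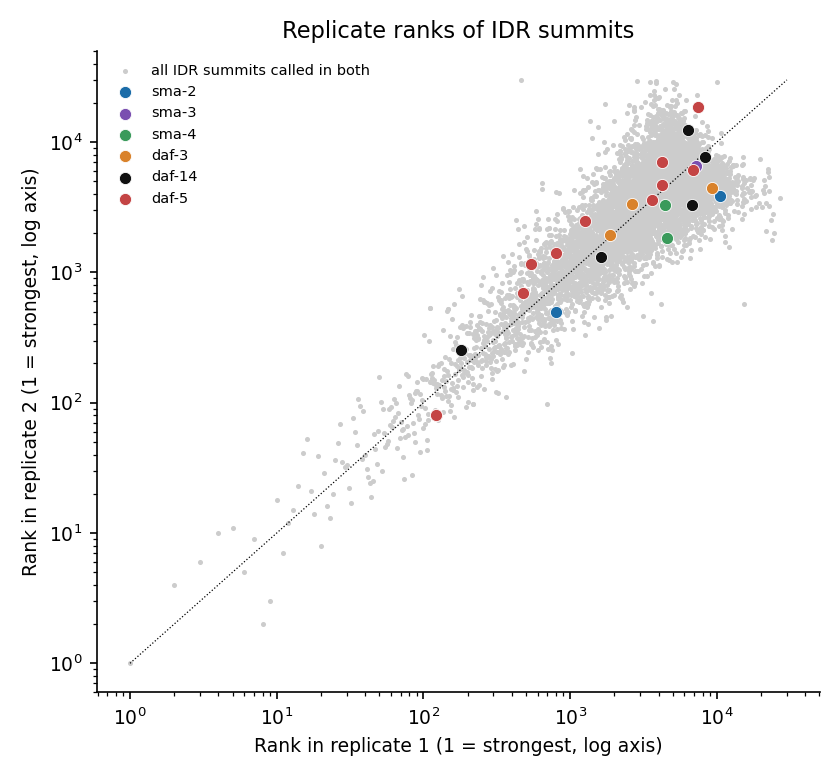
Rank of each IDR summit's call in replicate 1 and in replicate 2 (log axes, 1 is the strongest); grey points are the 6727 IDR summits called in both, coloured points are the 24 summits at the named genes, and the dotted line marks equal rank. The strongest daf-5 and daf-14 points lie near the line (122 and 81, 179 and 255), and some weaker peaks lie farther from it, such as sma-2 at 10503 and 3885 and daf-5 at 7480 and 18467.

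DAF-8 is the other receptor-regulated Smad of the DAF-7 pathway, and its gene was the only one of the 7 without an IDR summit in the window. The gene (WBGene00000904) lies on the minus strand of chromosome I at 8584424-8587507, with 1 annotated 5' end. Its strongest pooled call had a signal of 32.7 and rank 13929, and lay downstream. A call 352 bp upstream of its 5' end had a signal of 26.9 and rank 17369, and the others had 21.2 and 19.3. All 4 stood well below 61.96, the lowest IDR signal. The nearest IDR summits lay just outside the window, 3211 bp upstream at 8590718 with a signal of 73.5 and 4100 bp downstream at 8580324 with a signal of 87.7, and these were 497 bp upstream of ran-4 and 119 bp upstream of rskn-1. Whether SMA-9 binds weakly or not at all at daf-8 cannot be told from these lists.

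Near the threshold, the weakest IDR peaks of these genes were those of daf-14 at 62.0 and 63.6 and of daf-3 at 65.7. The strongest calls that did not pass were those of sma-4 at 58.5 (rank 7523), sma-3 at 57.2, daf-14 at 56.2 and daf-5 at 56.1 (rank 7826). That daf-14 call ranked 5812 in replicate 1 and 5642 in replicate 2, within the strongest 7065 calls of both. The daf-5 peak at 14053653, which is on the IDR list, ranked 7480 and 18467.

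Other genes of the same pathways were read by the same rule from a list of 25, which held ligands, receptors, extracellular regulators and nuclear factors. An IDR summit was present in or within 3000 bp of 18 of the 25, beside 39.8% of all protein-coding genes. Within 1000 bp of a 5' end, 11 of the 25 had one, beside 20.2% of all. The same shares apply to the counts by pathway that follow. Of the DBL-1 pathway genes, 12 of 16 had an IDR summit within 3000 bp and 7 of 16 within 1000 bp of a 5' end. Of the DAF-7 pathway genes the counts were 5 of 6 by either rule, and of the other family members 2 of 4 and 0 of 4; daf-4, the type II receptor of both pathways, is in 2 of the lists and was counted once in the total.

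Among ligands, no IDR summit stood at dbl-1 or daf-7, the genes of the pathways' own ligands, nor at tig-3, while unc-129 had 70.6 and tig-2 had 110 as strongest pooled signal. Among receptors, the type I receptor gene sma-6 of the DBL-1 pathway had 145, the type I receptor gene daf-1 of the DAF-7 pathway 102, and the shared daf-4 122. Extracellular and membrane factors of the DBL-1 pathway gave 311 at sma-10, 247 at crm-1, 154 at tsp-12, 142 at sup-17, 133 at unc-40, 132 at adt-2, 79.9 at tsp-21 and 78.2 at drag-1. No IDR summit stood at lon-2 or tsp-14. None stood at mab-31 of the DBL-1 list or at tag-68 of the other family members, which are not counted here as extracellular or membrane factors. Of other listed genes, lon-1, a known target of the DBL-1 pathway, had 202 and bra-1 had 115.2. For the cGMP-dependent kinase gene egl-4 the value was 328, and for the nuclear receptor gene daf-12 it was 302. The gene of SMA-9 itself had the highest signal of the list, 1495, with 10 IDR summits; the transgene holds sma-9 sequence, and its reads cannot be told apart from those of the native gene in these lists. The strongest peaks of daf-5 and daf-14 stood above those of all 25 listed genes except sma-9.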

How the data were processed

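The deposited files are peak lists of SMA-9 ChIP-seq on ce10 and ce11. Per the file headers, the authors made a list for each replicate from its alignments, a pooled list from both, and the IDR list from these. Which aligner and caller were used, and at what IDR threshold, is not given in the sources used here. Every call has the authors' deposited peak signal, used here, and a deposited −log10 q-value, which reaches at most 4.17, 4.16 and 2.73 in the pooled, replicate 1 and replicate 2 lists, and which was not used to rank. Depth is unknown. Coordinates are 1-based.

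Summits were placed on Ensembl release 115 with Python 3.11.15 and pandas 2.3.3, and 5' ends were those of protein-coding transcripts. Many annotated 5' ends of this species are trans-splice sites, which lie downstream of the start of transcription. Some transcripts of the 7 genes, such as F01G10.8a.1 of daf-14, are annotated without a 5' UTR. Their 5' ends are coding starts, and counts by 5' end include them. A summit in the window of several genes was given to each. A replicate's call was the one that contains the summit. Sequences were read from the ce11 genome. The placing was tested on simulated data. The 7 genes, the pathway list and the elements searched were chosen with earlier results of these data known. All 7 were described with every IDR summit, and other genes named are their neighbours at such summits, the genes next to the nearest summits outside the window, or those of the pathway list. The search of whole loci for the palindrome and the count of windows with 5 or more GTCT or AGAC were added after seeing the data. So were the match to ce10, the count without overlapping peaks and that without daf-5. With 1 group, no test was made. No protein sequences were compared.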

Additional observations from a re-analysis of the deposited data

How the results depend on the processing

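Counting IDR summits inside the gene body alone left 3 of the 7 genes with a summit and 8 of the 25 pathway genes. Keeping only IDR peaks at or above the median signal left 11 summits, and 3 genes with a summit within 1000 bp of a 5' end. All calls of the pooled list gave 65 summits, and the IDR list without daf-5 gave 13. The other 38 alternative counts were within 1.5 times the reported ones: windows of 1000, 2000 and 5000 bp gave 5, 6 and 7 genes and 20, 23 and 29 summits, and summits whose nearest gene is the named one numbered 19, at 4 genes. With the strongest 7065 calls of 1 replicate in place of the IDR list, genes with a summit ranged from 5 to 6, summits from 22 to 24, pathway genes from 19 to 21, and genes with a summit within 1000 bp of a 5' end from 4 to 5. A match to the ce10 IDR list found 20 of the 24 summits, at 5 genes. That match asked for the same chromosome and width and a signal within 0.01, so a missing match does not show that a peak is missing. The cause of these changes was not tested beyond the construction of each setting. No share of all protein-coding genes is given here for the alternative settings. The shares of 39.8% and 20.2% belong to the reported rules and are not a like background for these counts. The strongest signal of sma-3 rose to 194 with a window of 5000 bp, and that of daf-3 was 131 within 1000 or 2000 bp and 65.7 inside the gene. Counts of elements moved with the window, for GATAA from 2 of 24 (18.1% of all IDR windows) in the narrower window to 12 of 24 (50.3% of all) in the wider. The GATAA share at these genes, above that of all IDR windows in the reported window, was thus below it in both others. No paired analysis was possible because the series holds 1 group and no contrast. The number of replicates, 2, and the unknown depth limit what the lists can show, and a gene without an IDR peak is not shown to be unbound.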
